A study of Mus musculus with 6 samples.

Results

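Transcription factors that mark the mesenchyme of the dermis were compared between UVB-exposed skin of Cbl-b-/- and WT mice. The members were 10 genes, Osr1, Osr2, Twist1, Twist2, Prrx1, Prrx2, Tbx15, Tcf21, Zeb1 and Zeb2, each read from 1 row of a table of 35556 transcript clusters, in which 19938 genes had a row with a single gene symbol. They were chosen by name, with this contrast already known: Osr1 entered because its value in these same 6 arrays was past the thresholds of the study, and its paralog Osr2 and the other 8 factors were set beside it. Their differences between genotypes are therefore given as a description and without a test.

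RNA came from whole dorsal skin of BL6 mice, 3 Cbl-b-/- (written clb-b -/- in the sample labels) and 3 WT, taken 24 h after a single exposure to 80 mJ/cm2 of UVB. Both groups were irradiated, with 1 array for each mouse, and the animals were described as matched for sex and age without the age being given. Cbl-b is an E3 ubiquitin ligase that restrains immune cell activation, and its deletion was present in all cells, so that a difference may arise in any cell of the skin. Nonirradiated skin was not analysed here, so the response to UVB itself is not part of the values below.

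Dermal fibroblasts descend from embryonic mesenchyme, whose identity is set by families of DNA-binding proteins: zinc-finger, basic helix-loop-helix, homeobox and T-box factors. Several of them stay on in adult fibroblasts, where they record the body site and the lineage of the cell. Twist and Zeb proteins also repress epithelial genes such as the adhesion molecule E-cadherin, a switch known from epithelial-mesenchymal transition.

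The values are RMA-normalized log2 intensities, in which a difference of 1 is a doubling. Array medians lay between 6.3 and 6.34. Cblb, the deleted gene, separated the genotypes, with means of 8.64 ± 0.049 and 9.76 ± 0.13 (SD, n = 3 each). Of the arrays, WT replicate 3 stood apart in the level of its hair follicle genes. The mean of 18 genes of the growing (anagen) follicle, of which 9 were above background in every array, was 9.27 there, 5.40 and 5.52 in the other WT arrays and 5.57, 6.53 and 7.01 in the Cbl-b-/- arrays. Cbl-b-/- replicate 2 had the lowest mean of the 8 adipocyte genes (7.98, others 8.28 to 9.51) and of the 8 skeletal muscle genes (9.76, others 10.28 to 11.05). Estimates without these arrays are given beside the members they moved and beside the other named genes whose direction or call they decided.

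Dermal mesenchyme was well represented in all 6 arrays. The 23 measured matrix and surface genes of fibroblasts averaged 9.43 to 9.60 in the Cbl-b-/- arrays and 9.43 to 9.48 in the WT arrays. Every one of the 23 exceeded, in all 6 arrays, the 95th percentile of the olfactory receptor rows, which served as a background because these receptors are not active in skin (5.33 to 5.51). Of the members, 9 of 10 were above the same level in all 6 arrays, and Tcf21 was above it in 0 of 6. In bulk skin, fewer cells of a type and less RNA per cell cannot be told apart. This applies to the marker levels above and to each value that follows.

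**Figure D1:**
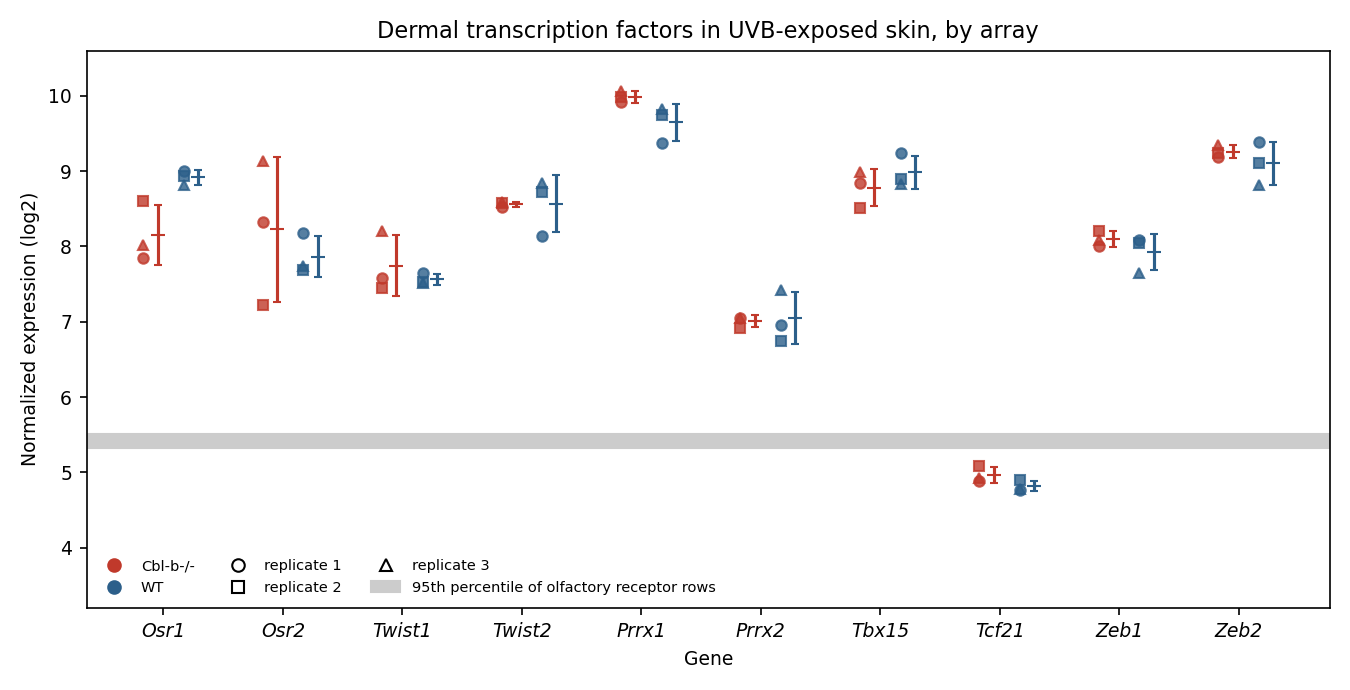
Normalized expression (log2, vertical axis) of the 10 genes in each array. Red symbols are Cbl-b-/- and blue symbols WT, symbol shape gives the replicate number, and the bars beside them are the group mean ± SD (n = 3). The grey band is the range over arrays of the 95th percentile of olfactory receptor rows (5.33 to 5.51). The groups separate for Osr1, lower in Cbl-b-/-, and for Prrx1, higher in Cbl-b-/-.

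Osr1 and Osr2 are zinc-finger proteins of the odd-skipped family. Osr1 marks connective tissue progenitors of the embryo, among them cells that give rise to fibroblasts and fat. Osr1 was 7.84, 8.60 and 8.02 in Cbl-b-/- replicates 1 to 3 and 9.00, 8.94 and 8.81 in WT replicates 1 to 3. All Cbl-b-/- arrays lay below all WT arrays, with a gap of 0.21 between the nearest arrays. The WT arrays were tightly grouped, while among the Cbl-b-/- arrays replicate 2 came close to the WT level. The difference in log2 expression was -0.76 (SE 0.20), a 1.70-fold lower mean. It ranged from -0.99 without Cbl-b-/- replicate 2 to -0.61 without Cbl-b-/- replicate 1, and was -0.82 without WT replicate 3, the array rich in hair follicle.

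Osr2, known for its part in palate and tooth development, did not follow its paralog. Osr2 was 8.33, 7.22 and 9.13 in the Cbl-b-/- arrays and 8.17, 7.68 and 7.74 in the WT arrays. The Cbl-b-/- arrays held both the highest and the lowest value of the 6 and enclosed the WT arrays. The difference was 0.36 (SE 0.46). It became -0.091 without Cbl-b-/- replicate 3 and 0.86 without Cbl-b-/- replicate 2, so that the direction rested on Cbl-b-/- replicate 3.

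Cbl-b-/- replicate 2 had the highest Osr1 and the lowest Osr2 of its group. It was also the array with the lowest adipocyte, skeletal muscle, and smooth muscle and pericyte levels. The part of tissue composition in these values was not tested.

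The thresholds of the study were an unadjusted p under 0.05 and a change of at least 1.5-fold, or 0.58 on the log2 scale. By size, Osr1 (0.76) was the 1 member past the fold threshold and Osr2 (0.36) the nearest of those that did not. In limma, 434 of all 35556 transcript clusters passed both thresholds, which is 1.22 percent, and 108 of the 21789 with a single symbol did, which is 0.496 percent. After adjustment over all rows, 1 cluster, lower in Cbl-b-/-, had a limma adjusted p under 0.05. For Cblb, the deleted gene, the limma adjusted p was 0.078. Of the members 1 of 10, Osr1, passed both unadjusted p and fold thresholds, in limma as by the one-way test named in the methods (the methods' test). Since Osr1 was selected on this contrast, nothing is read from that count. Without Cbl-b-/- replicate 2 the count was 2, Osr1 and Osr2.

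Twist1 and Twist2 are basic helix-loop-helix proteins. Twist1 is needed for cranial mesenchyme and sutures, and Twist2, also called Dermo1, is expressed in embryonic dermis and is needed for its normal formation. Twist1 was 7.59, 7.45 and 8.21 in the Cbl-b-/- arrays and 7.65, 7.53 and 7.52 in the WT arrays. Cbl-b-/- replicate 3 stood above the other 5 arrays, which overlapped. The difference of 0.18 (SE 0.20) became -0.051 without that array and 0.33 without Cbl-b-/- replicate 2.

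Twist2 was 8.52, 8.57 and 8.59 in the Cbl-b-/- arrays and 8.14, 8.72 and 8.85 in the WT arrays. Here the Cbl-b-/- arrays were nearly equal and lay inside the WT range, with WT replicate 1 the lowest array and WT replicate 3 the highest. The means were 8.56 ± 0.036 and 8.57 ± 0.38 (SD, n = 3 each), and the difference was -0.0083 (SE 0.18). Leaving out 1 array moved it between -0.22 (without WT replicate 1) and 0.13 (without WT replicate 3).

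Prrx1 and Prrx2 are paired-related homeobox proteins of limb bud and craniofacial mesenchyme, and Prrx1 marks a lineage of dermal fibroblasts. Prrx1 was 9.91, 9.98 and 10.06 in the Cbl-b-/- arrays and 9.37, 9.75 and 9.83 in the WT arrays. All Cbl-b-/- arrays were above all WT arrays, although the gap was only 0.086. The difference was 0.34 (SE 0.13), a 1.26-fold higher mean, which did not reach the fold threshold. It shrank to 0.20 without WT replicate 1, the lowest array, and was 0.43 without WT replicate 3.

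Prrx2 was 7.05, 6.92 and 7.05 in the Cbl-b-/- arrays and 6.96, 6.75 and 7.43 in the WT arrays. The groups overlapped, and WT replicate 3 was the highest array. The difference was -0.036 (SE 0.17). It turned to 0.15 without WT replicate 3 and to 0.0069 without Cbl-b-/- replicate 2.

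Tbx15 is a T-box factor that patterns the dorsal dermis and with it the boundary between back and belly coat colour. It was 8.84, 8.51 and 8.98 in the Cbl-b-/- arrays and 9.24, 8.89 and 8.83 in the WT arrays. Cbl-b-/- replicate 2 was lowest and WT replicate 1 highest, and the remaining 4 arrays were interleaved. The difference was -0.21 (SE 0.16). It stayed below 0 with any 1 array left out, from -0.31 to -0.074, the smaller value without Cbl-b-/- replicate 2.

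Tcf21 is a basic helix-loop-helix factor of fibroblast lineages in heart, lung and kidney. It was 4.88, 5.08 and 4.93 in the Cbl-b-/- arrays and 4.77, 4.90 and 4.78 in the WT arrays. All 6 values were under the olfactory receptor level, so the difference of 0.15 (SE 0.089) cannot be read as a change of Tcf21 transcript.

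Zeb1 and Zeb2 are zinc-finger and homeodomain repressors. They bind E-box sequences in the promoter of the E-cadherin gene and recruit the CtBP corepressors. Zeb1 was 8.0, 8.21 and 8.08 in the Cbl-b-/- arrays and 8.08, 8.04 and 7.65 in the WT arrays. Zeb2 was 9.19, 9.24 and 9.35 in the Cbl-b-/- arrays and 9.39, 9.11 and 8.82 in the WT arrays. For both genes the groups overlapped and WT replicate 3 was the lowest array.

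The difference was 0.17 (SE 0.14) for Zeb1 and 0.15 (SE 0.15) for Zeb2. Without WT replicate 3 it fell to 0.033 for Zeb1 and to 0.0093 for Zeb2. That array also had the lowest endothelial (6.98, others 7.51 to 7.68) and macrophage (8.85, others 8.99 to 9.67) levels, cells in which Zeb2 in particular is expressed. It was lowest for the keratinocyte genes (10.50, others 10.81 to 11.02) and the Schwann cell genes (6.42, others 6.69 to 6.86) too. The Schwann cell list, 3 measured of 6 listed, was the one marker list whose groups did not overlap, with the Cbl-b-/- arrays at 6.80 to 6.86 and the WT arrays at 6.42 to 6.74. The part of these cells, or of the hair follicle, in the Zeb values was not tested.

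**Figure D2:**
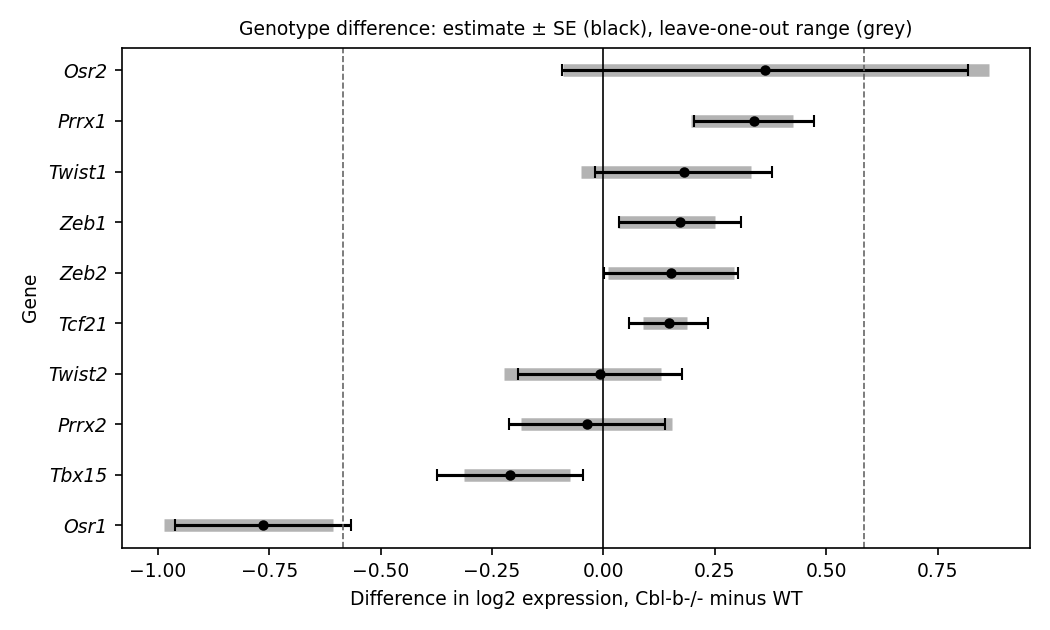
Difference in log2 expression, Cbl-b-/- minus WT (horizontal axis), for each of the 10 genes. Points with black bars are the estimate ± SE of limma (3 arrays per group), whose variance is moderated across all rows. Grey bars are the range when each of the 6 arrays is left out in turn, and dashed lines the 1.5-fold threshold. The estimate of Osr1 and its whole grey bar lie beyond the 1.5-fold line, and the estimates of the other 9 genes do not reach it. The grey bars of Osr2, Twist1, Twist2 and Prrx2 cross 0.

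Of the 10 factors, 6 had a higher and 4 a lower mean in Cbl-b-/- skin. Tcf21, under the olfactory receptor level in every array, is 1 of the 6. The median difference of the 10 was 0.15, beside 0.020 over all transcript clusters and 0.028 over those with a single symbol, of which 58.4% were higher. When rows under the median row mean were left out, 9 members remained and their median was 0.15. Without Cbl-b-/- replicate 3, the highest array for Osr2, Twist1 and Prrx1, the median of the 10 was -0.037. The groups did not overlap for 2 of the 10, Osr1 and Prrx1, where 13.6 percent of all clusters with a single symbol showed the same. The standard error was between 0.089 and 0.46, the largest for Osr2.

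WT replicate 3 was the highest array for Twist2 and Prrx2 and the lowest for Zeb1 and Zeb2. Cbl-b-/- replicate 2 was the lowest for Osr2, Twist1 and Tbx15. The dermal papilla list, 14 genes of the mesenchymal cluster that instructs the hair follicle, was highest in WT replicate 3 as well (7.10, other arrays 6.49 to 6.92).

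**Figure D3:**
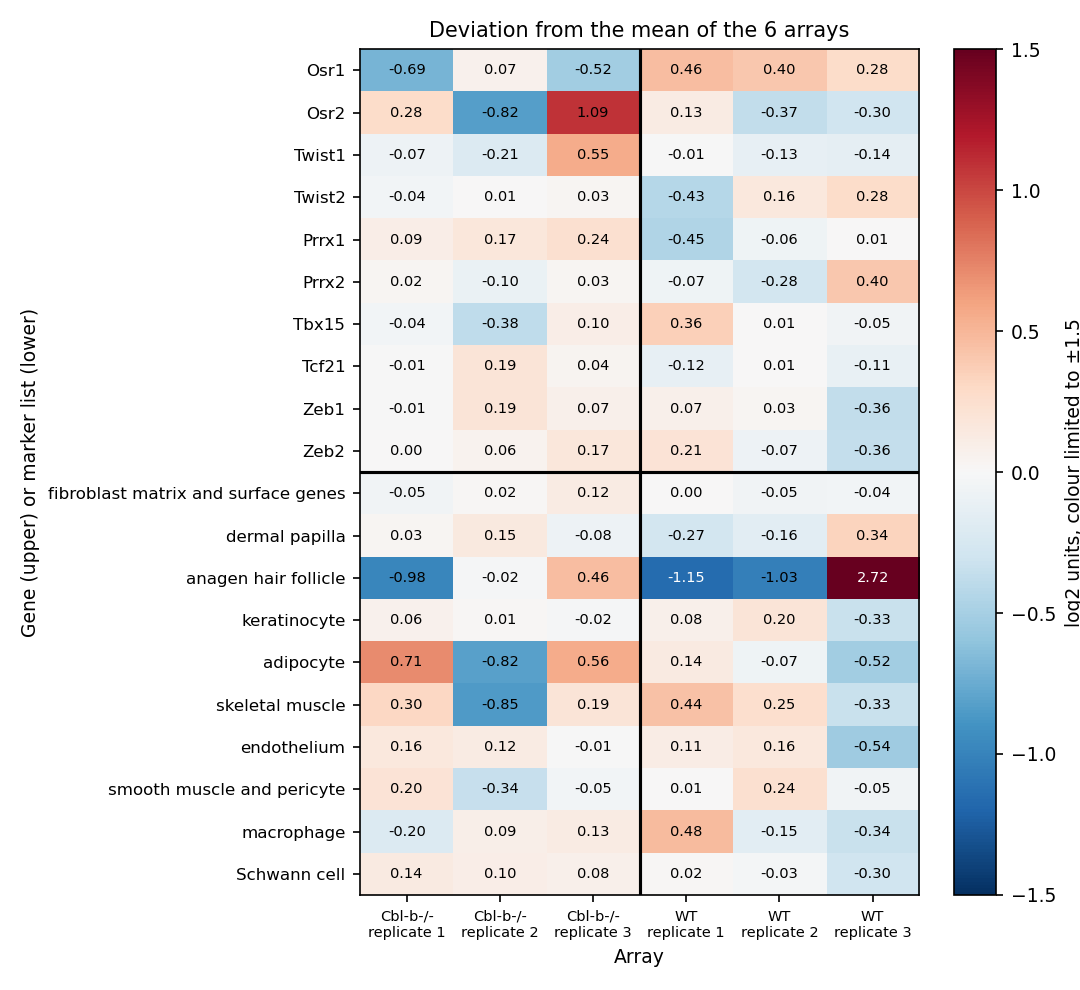
Deviation of each gene (upper rows) and of the mean of each cell type marker list (lower rows) from its mean over the 6 arrays, in log2 units. Red is above and blue below that mean, with colour limited to ±1.5. Osr1 separates the genotypes (vertical line). The mean of the fibroblast list, though not each of its genes, varies by at most 0.12. The anagen hair follicle list is 2.72 above its mean in WT replicate 3.

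Other transcription factors of mesenchyme, 34 measured of 36 listed, included homeobox, forkhead and Ebf proteins. None passed the thresholds. Of the 34, 5 had an unadjusted p under 0.05 by limma and 3 by the methods' test, and 0 passed after adjustment over all rows. Over all clusters with a single symbol, 5.35 percent had an unadjusted p under 0.05. The median difference of the list was 0.14, and it stayed between 0.053 and 0.20 with any 1 array left out. Of the 34, 27 were higher in Cbl-b-/- skin, beside 58.4% of all clusters with a single symbol. Among the 27 are Nr2f1, Foxp2 and Foxf2, named after their values were seen and under the olfactory receptor level in every array. The list's mean overlapped between groups, at 7.26 to 7.51 in the Cbl-b-/- arrays and 7.19 to 7.37 in the WT arrays.

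The largest differences of that list belonged to Mkx, Msx2 and Dlx5. Mkx, a homeobox factor of tendon, was 0.55 higher (SE 0.23) with overlapping groups. Without Cbl-b-/- replicate 2 it was 0.79 higher and passed the thresholds. Dlx5, a homeobox factor of bone and craniofacial mesenchyme, was 7.13, 7.44 and 7.93 against 7.09, 6.88 and 7.01, a difference of 0.51 (SE 0.20). Its groups did not overlap, by a margin of 0.034. Msx2, which is active in hair matrix as well as in mesenchyme, was 9.02 in WT replicate 3 and 5.92 to 6.71 in the other 5 arrays. Its difference was -0.53 (SE 0.81) over all arrays and 0.49 without WT replicate 3.

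Besides Dlx5, the genes with an unadjusted p under 0.05 were Meox1, Ebf1, Ebf3 and Foxf2, named after their values were seen. Meox1, a homeobox factor of somites, was 5.94, 6.0 and 5.99 in the Cbl-b-/- arrays and 5.65, 5.74 and 5.67 in the WT arrays, a difference of 0.29 (SE 0.072, limma adjusted p = 0.685). Ebf1, a helix-loop-helix factor of adipocyte and B cell development, differed by 0.33 (SE 0.11) and Ebf3 by 0.30 (SE 0.11). All Cbl-b-/- arrays were above all WT arrays for these 3 genes. Foxf2 was below the olfactory receptor level in every array. The 3 genes of the methods' test were Meox1, Ebf1 and Foxf2.

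Twist proteins act as dimers with E proteins, and Id proteins withhold these partners. Among 24 partners, inhibitors and corepressors, 0 passed the thresholds. An unadjusted p under 0.05 was reached by 1, Hdac1, in limma and by 2 in the methods' test, Hdac1 and the related deacetylase gene Hdac2, the latter named after its value was seen (difference -0.12, SE 0.074). The median difference was 0.0083. The E proteins Tcf3 (0.087, SE 0.11), Tcf4 (0.089, SE 0.085) and Tcf12 (-0.028, SE 0.13) differed by no more than about their standard errors. Tcf12 turned to 0.098 without Cbl-b-/- replicate 2 and to 0.034 without WT replicate 3.

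Of the Id genes, Id3, Id2 and Id1 had lower means in Cbl-b-/- skin, and the groups overlapped for each Id gene. Id3 was 7.0, 6.51 and 7.10 against 6.97, 7.17 and 7.60, a difference of -0.37 (SE 0.21). Id2 differed by -0.25 (SE 0.12), Id1 by -0.088 (SE 0.22) and Id4 by 0.014 (SE 0.18). Id1 turned to 0.094 without Cbl-b-/- replicate 3 and to 0.038 without WT replicate 2. Id4 turned to -0.11 without Cbl-b-/- replicate 3, -0.075 without WT replicate 1 and -0.048 without WT replicate 2. The Zeb corepressors had small differences, 0.028 (SE 0.073) for Ctbp1 and -0.064 (SE 0.11) for Ctbp2. Hdac1, a histone deacetylase of corepressor complexes, was lower in all Cbl-b-/- arrays, with means of 8.79 ± 0.11 and 9.02 ± 0.051 (SD, n = 3 each) and a limma adjusted p of 0.749.

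Epithelial genes on the other side of the Zeb and Twist switch numbered 20, and 0 passed the thresholds. An unadjusted p under 0.05 was found for 1, Grhl2, in limma and for 1, Esrp1, in the methods' test. The median was 0.077 with 15 of 20 higher, beside 58.4% of all clusters with a single symbol. Among the 15 are Cldn7 and Krt18, named after their values were seen, above the olfactory receptor level in 0 and 3 of 6 arrays. The list's mean overlapped between groups, at 8.33 to 8.41 in the Cbl-b-/- arrays and 8.24 to 8.37 in the WT arrays. Cdh1, which encodes E-cadherin, was 10.42 ± 0.16 in Cbl-b-/- and 10.38 ± 0.12 in WT skin (SD, n = 3 each). Its difference of 0.034 turned to -0.013 without Cbl-b-/- replicate 2 and to -0.0094 without WT replicate 3. Esrp1, an epithelial splicing factor, was higher in every Cbl-b-/- array by a small amount, 9.97 against 9.83.

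The grainyhead factors maintain epithelial identity. Grhl3 had a difference of 0.35 (SE 0.17) and Grhl1, named to complete the family after its value was seen, of 0.14 (SE 0.10), both with overlapping groups. Grhl2 was 7.55, 7.49 and 7.36 in the Cbl-b-/- arrays and 7.59, 7.71 and 7.86 in the WT arrays, a difference of -0.26 (SE 0.10, limma adjusted p = 0.749). Patj, a polarity protein, differed by -0.33 (SE 0.14), and WT replicate 3 was again the highest array for Grhl2 and Patj.

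The miR-200 family and the Zeb genes repress each other: the microRNAs pair through their seed with the Zeb transcripts, and Zeb proteins silence the microRNA genes. The mature sequences are shown 5′ to 3′ because the family falls into groups by its seed. Mir200b, whose array row separated the genotypes, and Mir200c, whose row did not, have the same seed. Capitals mark the seed (bases 2 to 8). The array rows carry the gene names of the hairpins and do not measure the mature forms printed here. Sequences are from RefSeq (GRCm38.p6). The seed AACACUG is shared by 2 members and the seed AAUACUG by 3.
miR-200a-3p: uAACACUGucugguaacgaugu
miR-141-3p: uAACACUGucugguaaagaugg
miR-200b-3p: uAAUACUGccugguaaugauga
miR-200c-3p: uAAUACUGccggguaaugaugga
miR-429-3p: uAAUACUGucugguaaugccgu
In RefSeq the genes of miR-200b (chr4:156055685-156055706, minus strand, mature form), miR-200a (chr4:156054911-156054932, minus strand) and miR-429 (chr4:156053916-156053937, minus strand) lie side by side, as do those of miR-200c (chr6:124718324-124718346, minus strand) and miR-141 (chr6:124717917-124717938, minus strand).

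Mir200b was 6.67, 6.52 and 6.28 in the Cbl-b-/- arrays and 7.04, 6.83 and 6.97 in the WT arrays. All Cbl-b-/- arrays were below all WT arrays, with a gap of 0.16. The difference was -0.46 (SE 0.12), short of the fold threshold, and the limma adjusted p was 0.685. Its neighbour Mir200a, named with the other family members after the values were seen, showed no such separation, with means of 6.58 ± 0.063 and 6.51 ± 0.099 (SD, n = 3 each). Mir200c differed by 0.094 (SE 0.10), and Mir141 was under the olfactory receptor level in all arrays. Mir429 shares its row with another symbol and was not analysed here.

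Among the 8 microRNA transcripts measured of 11 listed, 0 passed the thresholds, and 2 in limma and 1 in the methods' test had an unadjusted p under 0.05. Those of limma were Mir200b and Mir199b, of which Mir199b lay under the olfactory receptor level in all arrays (difference 0.39, SE 0.16). Mir205, of basal epithelium, differed by 0.15 (SE 0.12). Dnm3os, a noncoding RNA of mesenchyme that hosts the miR-199a and miR-214 hairpins and is a known Twist1 target, was 6.57 ± 0.012 in Cbl-b-/- and 6.55 ± 0.074 in WT skin (SD, n = 3 each).

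Among the 23 fibroblast matrix and surface genes, 2 had an unadjusted p under 0.05 in limma, Crabp1 and Loxl1, and 0 in the methods' test. Limma put 1 past both thresholds and the methods' test 0. This gene was Crabp1, a retinoic acid binding protein found in dermal papilla and dermal fibroblasts. It was 10.38, 11.02 and 10.12 in the Cbl-b-/- arrays and 9.87, 9.68 and 9.90 in the WT arrays. All Cbl-b-/- arrays were higher, and the difference was 0.69 (SE 0.23) with a limma adjusted p of 0.743. Without Cbl-b-/- replicate 2 the difference was 0.43, under the fold threshold. Without WT replicate 2 it was 0.62, which is over the fold threshold, and the unadjusted p no longer passed.

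Pdgfra, the receptor that defines most dermal fibroblasts, was 8.96, 9.66 and 8.60 in the Cbl-b-/- arrays and 9.50, 9.66 and 9.26 in the WT arrays. Cbl-b-/- replicate 2 was at the WT level and the other Cbl-b-/- arrays were below every WT array, and replicate 2 was the highest of its group for Osr1 as well. The difference was -0.40 (SE 0.27), and Pdgfra passed the thresholds without Cbl-b-/- replicate 2, at -0.69. Loxl1, an elastin crosslinking enzyme, differed by 0.45 (SE 0.17) with overlapping groups and a limma adjusted p of 0.749. The median of the list was 0.058 with 13 of 23 higher, beside 58.4% of all clusters with a single symbol.

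Mesenchymal genes raised in epithelial-mesenchymal transition, 17 measured of 18 listed, gave 0 genes past the thresholds. By limma, 0 had an unadjusted p under 0.05, and by the methods' test also 0. The list's median difference was 0.078. The matrix protein gene Tnc spanned 7.19 to 11.24 within the Cbl-b-/- group alone, and its difference was -0.46 (SE 0.96), or 0.60 without Cbl-b-/- replicate 3. Lox, a collagen crosslinking enzyme, differed by 0.44 (SE 0.24). Wnt5a differed by -0.26 (SE 0.37), or 0.20 without WT replicate 3, with WT replicate 3 at 7.78 and the other arrays at 6.31 to 6.69.

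**Figure D4:**
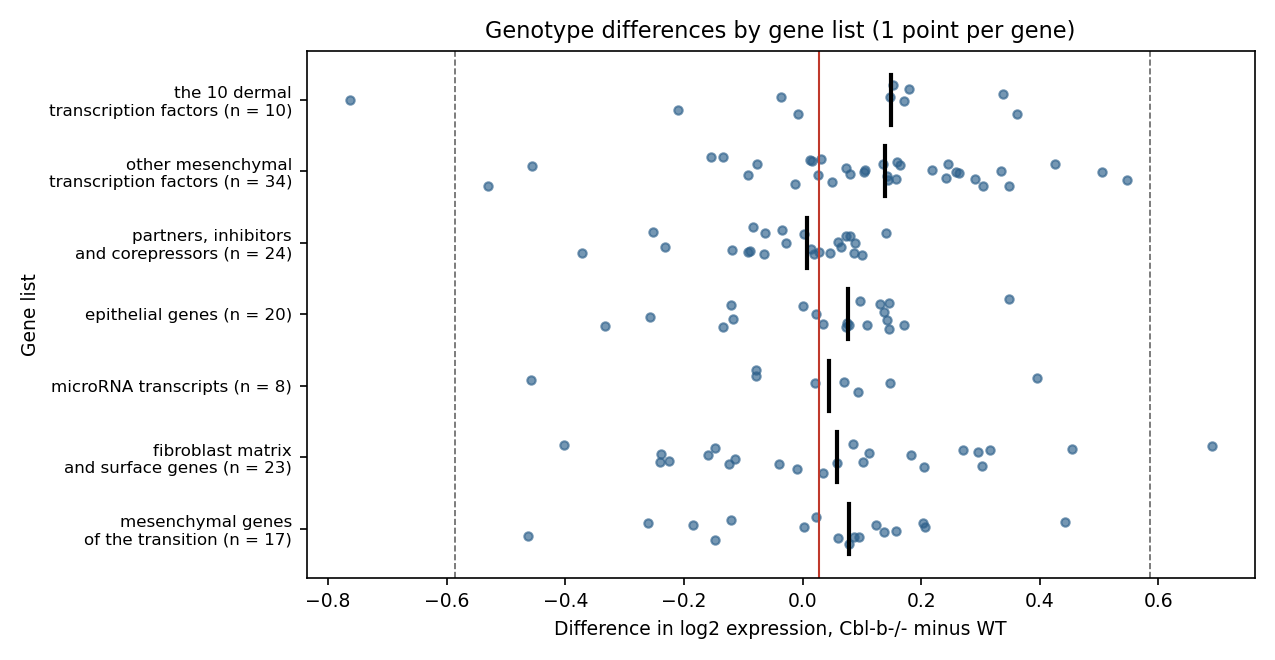
Difference in log2 expression, Cbl-b-/- minus WT (horizontal axis), with 1 point per gene, for the 10 factors and 6 lists of related genes. Thick black lines are list medians, the red line is the median of all clusters with a single symbol (0.028) and dashed lines are the 1.5-fold threshold. Osr1 (lower) and Crabp1 (higher) are the points beyond the 1.5-fold lines.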

How the data were processed

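The authors hybridized skin RNA to Affymetrix Mouse Gene 1.0 ST arrays and deposited log2 values, normalized by the robust multichip average (RMA), per the labels with Affymetrix Expression Console and Partek 6.5. RMA makes array distributions nearly equal, so a change shared by most genes cannot be seen. Probe-level intensities and the build of the array annotation were not used here. Rows were named through GEO's platform annotation. Each gene was taken from rows with exactly 1 symbol, the row with the highest mean if several (each member had 1), and 10 of 10 member Entrez identifiers had the same symbol in RefSeq.

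Cbl-b-/- and WT arrays were compared with limma 3.58.1 (lmFit, eBayes) in R 4.3.3 over all 35556 transcript clusters, with Benjamini-Hochberg adjustment. Each SE given is that of limma, which moderates the variance of a gene across all rows. It can therefore be smaller or larger than the SE from the arrays of that gene alone. The thresholds were those of the study, an unadjusted p under 0.05 and 1.5-fold. The one-way analysis named in its methods (the methods' test) was an alternative, as were other normalizations, a filter on dim rows, an intensity trend, a replicate block and leaving out each array. The limma script was tested on simulated data. The number of arrays, 3 per group, limits the precision.

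The members and gene lists were chosen with earlier results of these data known. Named from the lists were every gene past the thresholds, the 3 largest differences in each of the 6 related lists, and a fixed set of Twist partners and inhibitors, Zeb corepressors, Cdh1, Esrp1 and Dnm3os. Background was the 95th percentile of 1035 olfactory receptor rows in each array. A list's level is the mean of its measured genes.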

Additional observations from a re-analysis of the deposited data

How the results depend on the processing

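The count of transcript clusters past the thresholds was 434. It was 267 with the methods' test, 176 when only rows at or above the median row mean were kept (fewer rows tested), and 428 to 790 when 1 array was left out, the highest without Cbl-b-/- replicate 2. The members past them numbered 1 to 2 with 1 array left out, 2 (Osr1 and Osr2) without Cbl-b-/- replicate 2. For the other mesenchymal transcription factors the range was 0 to 2, with Foxc1 and Dlx5 passing without Cbl-b-/- replicate 1 and Mkx without Cbl-b-/- replicate 2. For the fibroblast genes the count was 0 with the methods' test and 0 to 2 with 1 array left out. It was 2 without Cbl-b-/- replicate 1 (Mfap5 and Crabp1) and without WT replicate 1 (Loxl1 and Crabp1), and 0 without WT replicate 2. The cause of these changes was not tested.

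The labels number the replicates of both groups from 1 to 3, but nothing states that equal numbers mark a shared litter or day. The correlations of the deviations of equally numbered arrays were 0.233, 0.0924 and 0.247, and 5 of 6 arrays were best matched by the array of their own number. Those of differently numbered arrays ranged from -0.327 to 0.232, so the ranges overlapped. With the number as a replicate block, 453 transcript clusters and 1 member passed.

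With 3 mice per group the differences are imprecise, and 1 standard error to either side does not bound them. Mkx, for example, at 0.55 with an SE of 0.23, had an unadjusted limma p of 0.0502. Osr2 and Tnc were spread across all 3 Cbl-b-/- mice, and Msx2 was set apart in WT replicate 3. Leaving out each array for the named list genes was chosen after seeing the data. Tcf21, Foxf2, Nr2f1, Foxp2, Cldn7, Mir141 and Mir199b were not above background, so their differences carry no level. Whole skin, a single time point and the absence of unirradiated arrays from the comparison limit the values to the genotype difference in irradiated tissue.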
